A study of Caenorhabditis elegans with 2 samples.

Results

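The PUF genes encode RNA-binding proteins of the Pumilio and FBF family. The 8 members described here are fbf-1, fbf-2, puf-3, puf-5, puf-8, puf-9, puf-11 and puf-12, taken by name from 19973 nuclear protein-coding genes of Caenorhabditis elegans. AMA-1, the largest subunit of RNA polymerase II, was mapped at these genes by ChIP-seq, in which protein-bound DNA is enriched with an antibody and sequenced. The material was 2 biological replicates of whole young adult worms, males and females pooled and of unknown age, in a single group. The strain was YL503, which has the mutation unc-119(ed3) and the insertion vrIs110. That insertion holds the promoter of the germline gene pie-1, AMA-1 joined to GFP and FLAG and followed by its own 3' UTR, and a working unc-119 gene. Both replicates carry it, and no strain without it and no second condition was analysed here. The antibody target is given as ama-1, and the sources used here do not say whether the tag or the protein itself was recognised. Whole worms mix germline and somatic nuclei, so a high signal in few cells and a low signal in many cannot be told apart.

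PUF proteins bind short elements that begin with UGU in the 3' UTRs of messenger RNAs, and mostly lower the stability or translation of those messages. In the C. elegans germline, fbf-1 and fbf-2 maintain stem cells, puf-8 acts in proliferating germ cells and spermatocytes, and puf-3, puf-5 and puf-11 act during oocyte growth and in the early embryo. The gene puf-9 acts in somatic tissues such as the seam cells of the epidermis. RNA polymerase II is known to accumulate at many genes near the start and again past the site where the transcript is cleaved.

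The signal of a peak is the authors' own value, set against a control, and is read here only within its own list. A summit is the single highest base of a peak. The relaxed lists, which hold background as well as peaks, numbered 30000 peaks (pooled), 30000 (replicate 1) and 27106 (replicate 2), and their median signals were 6.89, 4.75 and 3.62 in the same order. The thresholded list held 732 pooled peaks with signals of at least 27.5. Read depth is unknown, so no interval for a single signal is given, and with 2 replicates of 1 group the design allows no test. The values that follow are descriptions.

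Each of the 8 members had AMA-1 summits in the pooled relaxed list, and 2 of them had a summit in the thresholded list. The PUF genes puf-6 and puf-7, which are not members and are described below, had none. Summits were counted in the gene body and 1000 bp on either side. All 8 members had 1 or more pooled relaxed summits, against 56.4% of all genes. In each of the 3 relaxed lists a summit was present at 7 of the 8, against 45.2% of all genes, and the exception was fbf-2, which had none in replicate 2. The 2 members with a thresholded summit were puf-5 and puf-11 (5.20% of all genes), and the peak at puf-11 lay beside another gene. The pooled, replicate 1 and replicate 2 lists held 34, 27 and 25 summits at the members, and the pooled ones numbered from 2 to 7 a gene. The median window was 4414 bp long at the members and 4027 bp over all genes.

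**Figure D1:**
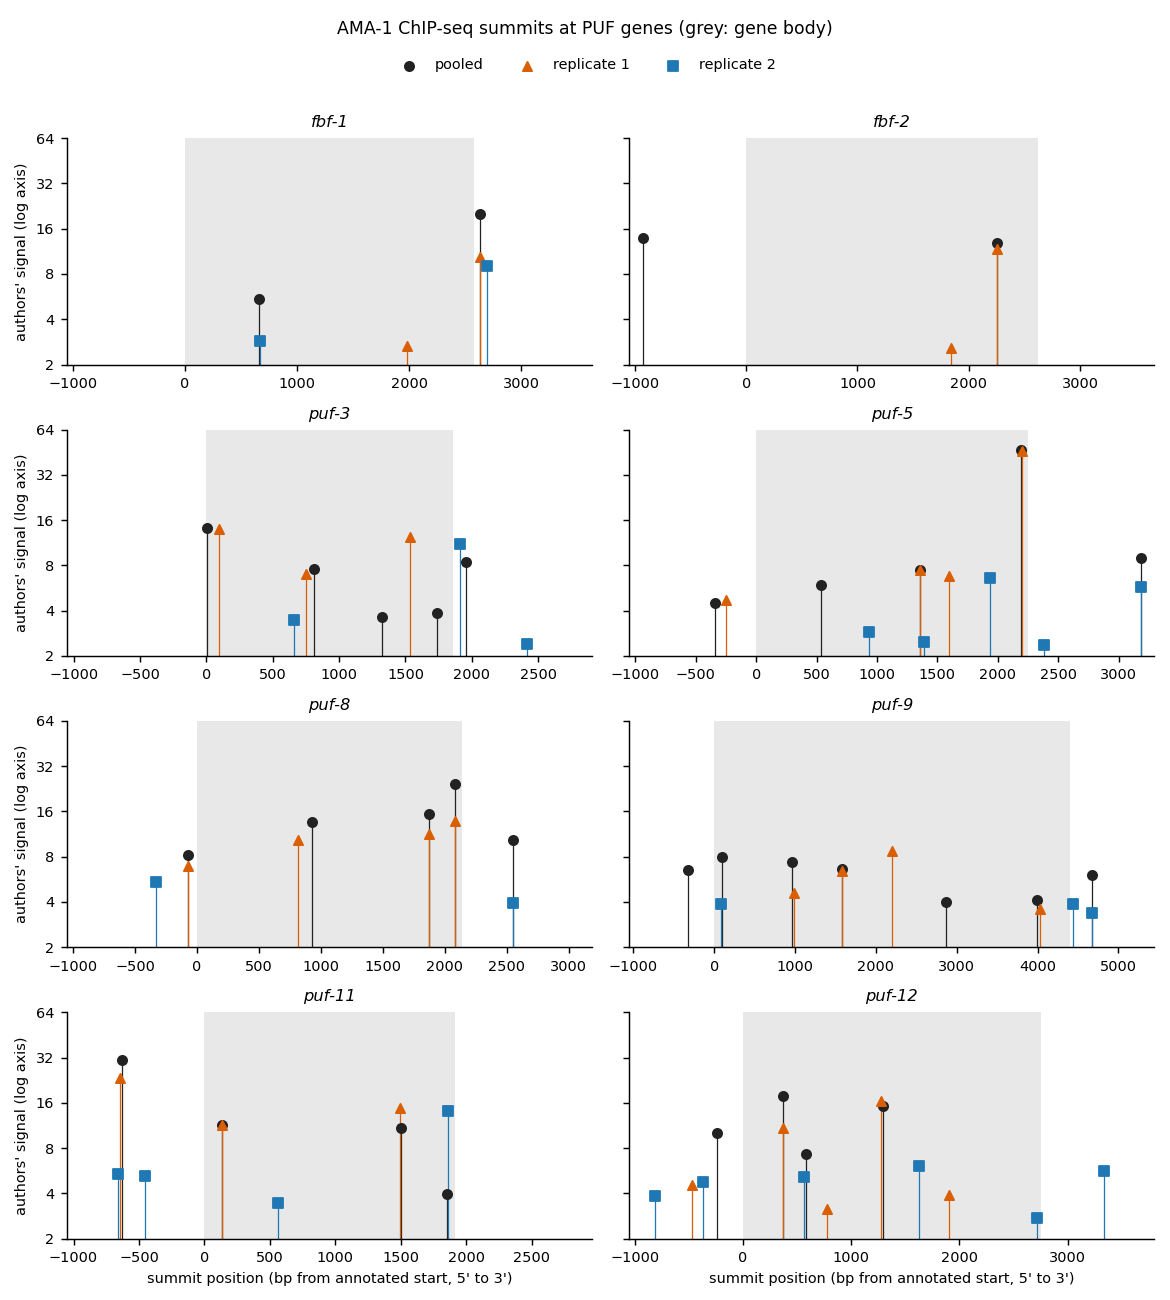
AMA-1 summits at the 8 PUF genes. The horizontal axis is the distance of a summit from the annotated gene start in bp, in the direction of transcription, the vertical axis is the authors' signal on a log scale, and grey marks the gene body. Circles are pooled, triangles replicate 1 and squares replicate 2. The highest summit, 47.0 at puf-5, sits near the 3' end of the gene with a replicate 1 summit of 45.8 on it and no replicate 2 summit at the same place.

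The highest signal of the family lay at the 3' end of puf-5, an oocyte gene, and it came with a high summit in replicate 1 and a low one nearby in replicate 2. The gene spans chromosome II 8575541 to 8577787 on the plus strand (ce11). The pooled peak at 8577583 to 8577886 had a signal of 47.0, which was rank 173 of 30000, and its summit at 8577735 was in the 3' UTR, 52 bp before the gene end. In replicate 1 a summit 4 bp away had a signal of 45.8, rank 71 of 30000. In replicate 2 the nearest summit was 187 bp away with a signal of 2.37, rank 23232 of 27106, and the highest in the window was 6.61 at 8577477, 310 bp before the gene end. Replicate 2 therefore had no summit within 150 bp of the thresholded one. Lower pooled summits of 5.91 and 7.50 lay in coding exons, and the second of these, at 8576896, had 7.41 in replicate 1 at the same base and 2.47 in replicate 2 at 38 bp. The last pooled summit in the window, 8.89, lay inside the next gene, F54C9.9, which is on the same strand and begins after a gap of 261 bp. It had a replicate 2 summit of 5.71 at 1 bp, and the nearest replicate 1 summit was 990 bp away.

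At both copies of the stem cell regulator FBF the highest pooled summit lay outside the gene, in the body of another gene. The gene fbf-1 (chromosome II, 6078263 to 6080843, minus strand) was highest just past its 3' end. There the pooled summit at 6078207 had a signal of 20.2, rank 1569 of 30000, 56 bp past the gene end. Replicate 1 had 10.3 at 2 bp from it and replicate 2 had 9.06 at 56 bp, so both replicates placed a summit between 54 and 112 bp past the end. The same base lies inside H12I13.6, a protein-coding gene on the opposite strand that overlaps the end of fbf-1 by 15 bp, and a share between the 2 genes cannot be told apart without strand. Inside fbf-1 the only pooled summit was 5.42, in an intron 665 bp after the start.

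The gene fbf-2 (chromosome II, 6088863 to 6091480, minus strand) had no summit past its end and no replicate 2 summit in its window. Its pooled summit at 6089224, with a signal of 12.8, lay in a coding exon 361 bp before the gene end. Replicate 1 had 11.7 at the same base. The nearest replicate 2 summit was 1729 bp away, with a signal of 3.09. A second pooled summit, 13.9 at 6092411, lay 931 bp upstream of fbf-2 and inside the neighbouring gene nspg-3. Its nearest summits, 8.25 in replicate 1 and 4.48 in replicate 2, lay just outside the window.

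The fbf copies are close paralogues, and short stretches under their summits show how far they can be told apart by sequence. Their proteins of 614 and 632 residues shared 561 identical residues, 91.4% of the shorter one, and their coding sequences were 94.2% identical where aligned. The stretches shown are 30 bases around 2 pooled summits, each on the coding strand from NCBI's WBcel235 assembly, with capitals at bases that differ between the copies. The first, around the fbf-2 summit of 12.8, differed at 6 of the 30 bases. The nearest pooled summit to the aligned base of fbf-1 was 377 bp away.
fbf-2, chrII:6089210-6089239: atggGatcgaggaaggAaGcctgaTgctAG
fbf-1, chrII:6078570-6078599: atggAatcgaggaaggTaAcctgaGgctCA
The second, around the fbf-1 intron summit of 5.42, was the same in both copies.
fbf-1, chrII:6080164-6080193: tgaaatattcgaggttcgaattaatttatc
fbf-2, chrII:6090808-6090837: tgaaatattcgaggttcgaattaatttatc
No pooled summit lay within 1589 bp of the aligned base of fbf-2. The sources used here do not give how reads that fit both copies were placed.

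The gene puf-8 (chromosome II, 7296110 to 7298247, minus strand) had the third highest pooled signal of the family, again at the 3' end, and 4 of its 5 pooled summits had a replicate 1 summit within 150 bp. The pooled summit of 24.3 at 7296167, rank 999 of 30000, was in the 3' UTR, 57 bp before the gene end. Replicate 1 had 13.8 at 1 bp from it. The nearest replicate 2 summit was 471 bp away with a signal of 3.94. Further pooled summits of 15.3 in an intron, 13.6 in a coding exon and 8.20 at 70 bp before the start had replicate 1 summits of 11.3, 10.3 and 6.90 within 117 bp, and no replicate 2 summit within 150 bp. The pooled summit of 10.4 past the end, inside the same-strand gene C30G12.6, had the replicate 2 summit of 3.94 at 4 bp and none of replicate 1 within 150 bp. C30G12.6 begins 92 bp after the end of puf-8.

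The oocyte paralogues puf-3 and puf-11 shared some summit positions and not others. Replicate 1 summits lay in the body of each gene, near the start and in coding exons towards the end, and the highest replicate 2 summit of each lay within 60 bp of the gene end. For puf-3 (chromosome IV, 13510307 to 13512162, minus strand) replicate 1 had 14.0 at 95 bp after the start, 7.01 at 752 bp after the start and 12.3 at 324 bp before the end. Replicate 2 had 11.1, rank 919 of 27106, at 56 bp past the end. For puf-11 (chromosome IV, 6421585 to 6423497, plus strand) replicate 1 had 11.4 at 134 bp after the start and 14.7 at 416 bp before the end, and its highest summit in the window, 23.3, lay 643 bp upstream. Replicate 2 had 14.2, rank 445 of 27106, in the 3' UTR at 52 bp before the end. The 2 proteins, 502 and 505 residues long, shared 449 identical residues, 89.4% of the shorter.

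Set on the alignment of the 2 genes, the replicate 1 summits near the start lay 21 bp apart and those near the end 115 bp apart. The replicate 1 summit of 7.01 in puf-3 had no such partner, the nearest in puf-11 being 664 bp away, and no puf-3 summit was listed upstream of its start to match the 23.3. The replicate 2 summits near the ends lay 110 bp apart. In replicate 2 a lower summit in a coding exon, 3.45 in puf-3 and 3.44 in puf-11, lay 181 bp apart on the alignment. The pair is close enough in sequence for some short reads to fit both. The stretches below are 30 bases around the replicate 1 summit of 14.7 in puf-11 and around the pooled summit of 14.1 at the start of puf-3, each with its aligned partner. Capitals again mark bases that differ, 3 in the first pair and 1 in the second.
puf-11, chrIV:6423066-6423095: tccAgatacCaatcgCgatgctctcgacat
puf-3, chrIV:13510732-13510761: tccGgatacAaatcgTgatgctctcgacat
puf-3, chrIV:13512140-13512169: ttttcagGtagtctccgtaccaatatgagt
puf-11, chrIV:6421584-6421613: ttttcagTtagtctccgtaccaatatgagt

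The pooled summits of puf-3 were 14.1 at 8 bp after the start, 7.60 and 3.63 in coding exons, 3.88 in the 3' UTR and 8.39 at 100 bp past the end. The body of puf-11 had 11.3 and 10.8 in coding exons and 3.97 in the 3' UTR, where replicate 2 alone had its 14.2. The pooled signal at that place was thus low although the base was among the first 445 of replicate 2. The whole of puf-3 lies within afmd-2, a gene on the opposite strand, and the pooled summit of 8.39 falls within afmd-2 as well. The thresholded peak in the puf-11 window, 30.7 at 6420804 to 6421107 (rank 561 of 30000), had its summit 629 bp before puf-11 and 58 bp past the end of htp-2, a meiotic chromosome axis gene. It had 23.3 in replicate 1 at 14 bp and 5.34 in replicate 2 at 30 bp. Without it, the highest pooled signal of puf-11 was 11.3.

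The gene puf-9 (X chromosome, 5841592 to 5845987, plus strand) had the lowest highest pooled signal and the most pooled summits of the 8, and it is the only member on the X. Its 7 pooled summits ran from 3.99 to 7.97, spread from 322 bp before the start to 282 bp past the end. The highest, 7.97 at 96 bp after the start, lay in an intron, rank 11990 of 30000, with a replicate 2 summit of 3.90 at 6 bp and none of replicate 1 within 150 bp. The highest replicate 1 summit was 8.75 in a coding exon, 2203 bp after the start, and the nearest pooled summit to it was 6.66, at 1578 bp after the start, where replicate 1 had 6.46 at the same base. The closest summits of the 2 replicates were 416 bp apart. Of the 7 pooled summits, 7.97 and 7.38 were above the list median of 6.89 and the other 5 below it.

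The gene puf-12, a distant member whose protein shared at most 15.4% of residues of the shorter protein with any other PUF protein examined, had its highest pooled signal in a coding exon near the start. It lies at chromosome II 10100310 to 10103061 on the plus strand. The pooled summit of 17.8 at 10100684, rank 2171 of 30000, was in a coding exon 374 bp after the start, with 10.8 in replicate 1 at 5 bp and 5.12 in replicate 2 at 187 bp. Another in a coding exon, 15.3 at 1296 bp after the start, had 16.4 in replicate 1 at 24 bp, and the nearest replicate 2 summit was 6.06 at 330 bp. Of the 6 replicate 2 summits, 1 of 2.76 lay 30 bp before the gene end, where puf-12 and the convergent gene ZK945.4 overlap by 91 bp. Neither the pooled nor the replicate 1 list had a summit there.

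**Figure D2:**
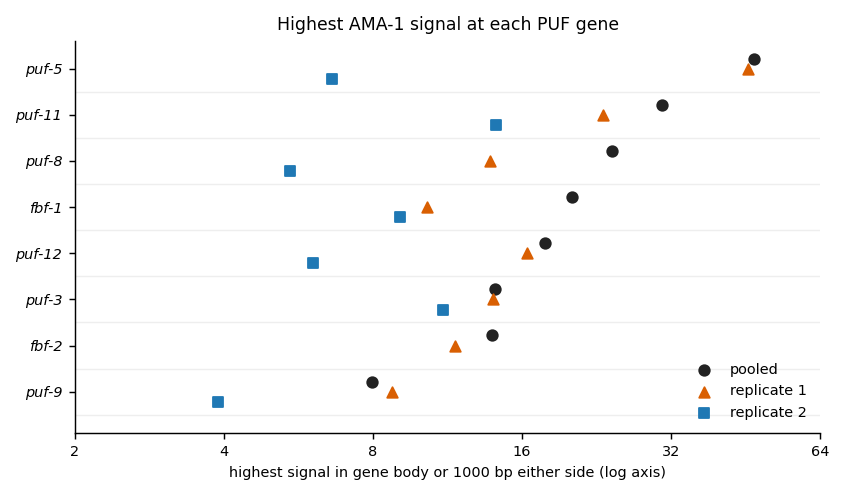
The highest signal in the body or 1000 bp either side of each PUF gene, on a log scale, with genes ordered by the pooled value. Circles are pooled, triangles replicate 1 and squares replicate 2, and fbf-2 has no square because no replicate 2 summit was listed there. Signals of different lists are not on 1 scale, so the orders within a list are to be read, from puf-5 (47.0 pooled) down to puf-9 (7.97).

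The order of the members differed between the replicates. In the pooled list it was puf-5 (47.0), puf-11 (30.7), puf-8 (24.3), fbf-1 (20.2), puf-12 (17.8), puf-3 (14.1), fbf-2 (13.9) and puf-9 (7.97). In replicate 1 it was puf-5 (45.8), puf-11 (23.3), puf-12 (16.4), puf-3 (14.0), puf-8 (13.8), fbf-2 (11.7), fbf-1 (10.3) and puf-9 (8.75). In replicate 2 puf-11 (14.2), puf-3 (11.1) and fbf-1 (9.06) came before puf-5 (6.61), puf-12 (6.06), puf-8 (5.43) and puf-9 (3.90). The gene puf-9 was lowest in the pooled and replicate 1 lists and lowest of those with a summit in replicate 2. Single signals have no error of their own here, so whether neighbours such as puf-3 and fbf-2 differ was not tested. Among the 732 highest-signal peaks of replicate 1 alone were summits at puf-5 and in the puf-11 window. That puf-11 summit was the 23.3 upstream of the gene, just past the end of htp-2. Among those of replicate 2 alone was a summit at puf-11 only, the one in its 3' UTR.

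Most pooled summits at the PUF genes had a nearby summit in 1 replicate and not in the other. Of the 34, 20 had a replicate 1 summit within 150 bp and 13 had a replicate 2 summit within 150 bp. Both replicates had one for 4 of the 34, at fbf-1 past the end, in the nspg-3 body near fbf-2, in a coding exon of puf-5, and past the end of htp-2 near puf-11. Neither did for 5. The same counts over all pooled summits were not computed, so those at the PUF genes have no background beside them. Counted by gene and with no pooled summit required, 5 of the 8 members had summits of the 2 replicates within 150 bp of each other, against 27.0% of all genes. These were fbf-1 (58 bp apart), puf-3 (92 bp), puf-5 (38 bp), puf-11 (16 bp) and puf-12 (100 bp). The fbf-1 pair lay inside H12I13.6, and the puf-11 pair lay just past the end of htp-2. The puf-12 pair, with signals of 4.54 and 4.79, lay 473 and 373 bp upstream of puf-12, in and beside the gene pas-7. In the body alone the count was 2, puf-3 and puf-5, against 14.0% of all genes. Of the puf-5 pair the signals were 7.41 and 2.47, not the thresholded peak.

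Summits close to the 3' ends of PUF genes were found in all 3 relaxed lists, with fbf-1 and puf-5 in each of them by position alone. At puf-5 the replicate 2 summit was low, 2.37 at rank 23232 of 27106, against a list median of 3.62. It lay 187 bp from the pooled summit of 47.0, so the 2 were not matched within 150 bp. The summits near the end of fbf-1 lay inside H12I13.6 in all 3 lists. A pooled summit lay within 150 bp of the end of 5 members, fbf-1, puf-3, puf-5, puf-8 and puf-11, against 18.6% of all genes. A replicate 1 summit did so at 3, fbf-1, puf-5 and puf-8 (17.7% of all genes), and a replicate 2 summit at 6, all but fbf-2 and puf-8 (16.5% of all genes). Within 150 bp of the start there was a pooled summit at 4 members, puf-3, puf-8, puf-9 and puf-11 (13.3% of all genes). Replicate 1 had one at 3 starts, puf-3, puf-8 and puf-11 (13.0%), and replicate 2 at 1, puf-9 (11.9%). With the thresholded list and 500 bp, 1 member had a summit at its end, puf-5 (2.96% of all genes), and 0 had one at the start (1.29% of all genes). By position, 13 of the 34 pooled summits lay in coding exons, 5 in 3' UTRs, 4 in introns, 1 in a 5' UTR and 11 outside the gene. No summit lay within 500 bp of a gene for a tRNA, rRNA, snRNA, snoRNA or microRNA. Neither the positions nor these distances were counted over all pooled summits, so they have no background beside them.

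The end of a gene is set by the cleavage and polyadenylation signal of the transcript, most often AATAAA on the coding strand. It was searched in the last 50 bp before each annotated end, on the coding strand only, and was present at 4 of the 8 members and at 48.2% of all genes. The stretches below give those 4, as 30 bases of the coding strand from NCBI's WBcel235 assembly with the signal in capitals.
fbf-1, chrII:6078271-6078300: ctctaaaaattaAATAAAattatttcaaca
puf-3, chrIV:13510311-13510340: ataaattctgtgAATAAAgaatttacaaac
puf-11, chrIV:6423466-6423495: ttaaattctgtgAATAAAgaatttacaaac
puf-12, chrII:10103024-10103053: acaccgtacggtAATAAAaaggaaaaatat
The pooled summit nearest to the first base of the signal was 81 bp away at fbf-1 (20.2), 98 bp at puf-3 (3.88), 37 bp at puf-11 (3.97) and 1430 bp at puf-12 (15.3). The ends of fbf-2, puf-5, puf-8 and puf-9 do not hold these letters in that window.

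Other PUF genes with near-identical copies had no AMA-1 summit in any list. These are puf-6 (chromosome II, 13039792 to 13043445) and puf-7 (chromosome IV, 5486713 to 5490322), which act with puf-5 in oocytes. Their proteins of 485 residues each shared 473 identical residues, 97.5%, and their coding sequences were 98.5% identical. A 36-mer, a stretch of 36 bases, was called repeated where it occurred again anywhere in the assembly on either strand. Repeated 36-mers began at 59.6% of the bases of puf-6 and at 60.4% of those of puf-7, more than in 96.9% of genes. The share was 27.7% in fbf-1, 26.7% in fbf-2, 3.99% in puf-3 and 3.87% in puf-11. In puf-5, puf-8, puf-9 and puf-12 it was 0. Of the 753 genes with 50% or more of the body repeated, 26.7% had a pooled summit in the window, against 60.8% of the 5702 genes with 1 to 50% and 56.3% of the 13518 genes with under 1%. The part of repeated sequence in the lack of summits at puf-6 and puf-7 was not tested.

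**Figure D3:**
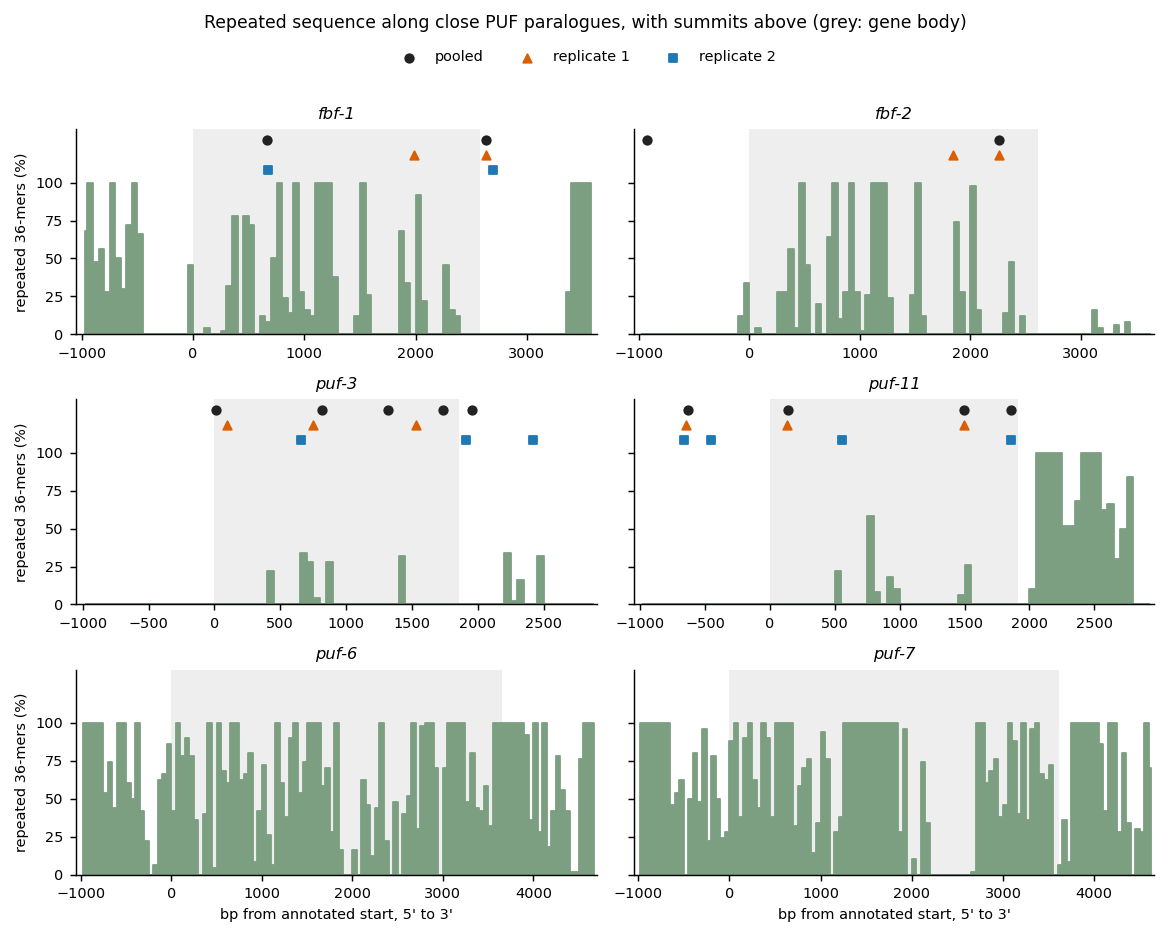
Repeated sequence along 6 close PUF paralogues. The horizontal axis is the distance from the annotated start in bp, in the direction of transcription, and the green area is the percent of 36-mers, in bins of 50 bp, that occur again in the assembly. Symbols above it are summits (circles pooled, triangles replicate 1, squares replicate 2) and grey marks the gene body. Repeats cover much of puf-6 and puf-7, which have no symbols, parts of fbf-1 and fbf-2, and little of the bodies of puf-3 and puf-11.

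Set beside all genes, the members lay above the middle of the range of AMA-1 signal in each list, except for fbf-2 in replicate 2. The median of their highest pooled signals was 19.0, against 5.35 over all genes, of which many have no summit and count as 0, and 11.2 over the genes with a summit. The highest signal of puf-5 was above that of 98.8% of all genes, puf-11 above 96.0%, puf-8 above 93.0%, fbf-1 above 89.6%, puf-12 above 86.3%, puf-3 above 79.1%, fbf-2 above 78.6% and puf-9 above 60.3%. In replicate 1 the members ran from 73.5% (puf-9) to 99.6% (puf-5). In replicate 2 the 7 members with a summit ran from 57.0% (puf-9) to 97.0% (puf-11), with puf-8 at 71.3%, puf-12 at 75.9% and puf-5 at 79.6%, and fbf-2, with no summit, was at 0. The place of puf-11 in the pooled list came from the peak beside htp-2 and that of fbf-1 from the summit inside H12I13.6. That of fbf-2 came from the summit inside nspg-3.

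**Figure D4:**
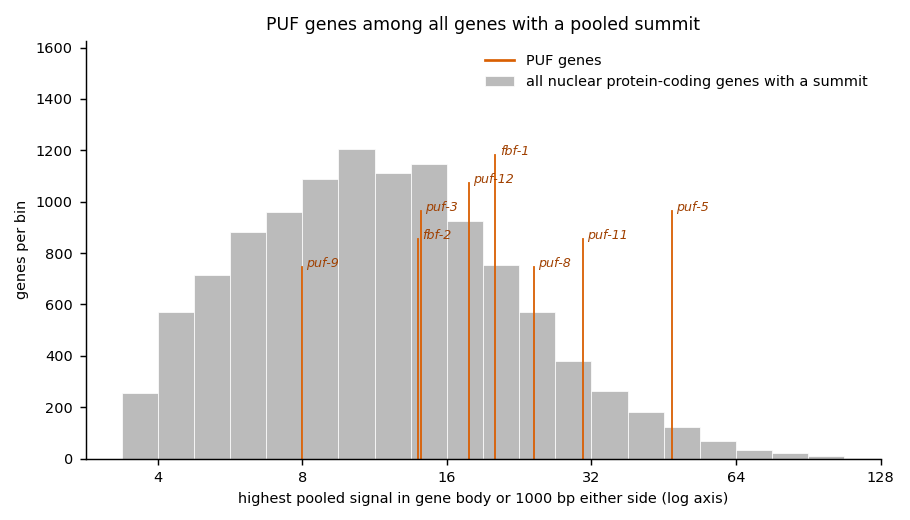
The highest pooled signal of each PUF gene (orange lines, with names) over the distribution for all nuclear protein-coding genes with a pooled summit (grey bars, genes per bin on the vertical axis). The horizontal axis is the signal on a log scale, and the heights of the orange lines only keep the names apart. Of the 8 members, 7 lie above the median of 11.2 and puf-9, at 7.97, below it.

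Genes that act with PUF proteins, or whose messages PUF proteins are known to bind, carried thresholded summits at 7 of 23 and 5 of 20, against 5.20% of all genes. The partner list holds Nanos proteins, cytoplasmic poly(A) polymerases, deadenylase subunits and cofactors, and of 24 symbols ntl-1 was not matched and is not analysed here. Its median highest pooled signal was 19.3, and that of the target list was 17.2. Over all genes, of which many have no summit and count as 0, the median was 5.35. It was 11.2 over the genes with a summit, and 23 of 23 partners and 17 of 20 targets had a pooled summit. In 6 of the 7 partners the thresholded summit was within 500 bp of the gene end, and the same held for 4 of the 5 targets. Over all genes it held for 591 of the 1038 with a thresholded summit in the window.

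Among the partners, ntl-3, a CCR4-NOT deadenylase subunit, had 80.5 at 56 bp past its end (48.1 in replicate 1 and 29.8 in replicate 2), where the gene rsp-8 on the opposite strand also ends. The RNA helicase gene cgh-1 had 64.2 at 219 bp past its end (51.6 and 16.3 in replicates 1 and 2). The gene car-1, whose product is an Sm-like protein of RNA granules, had 54.6 in its body, 92 bp from the end (42.7 and 14.7). The deadenylase gene ccr-4 had 34.1 at 93 bp past its end (16.1 and 10.8). The FBF-2 cofactor gene dlc-1 had 32.2 at 154 bp past its end (21.9 and 7.70). The La-related gene larp-1 had 31.2 at a summit outside the gene, at -680 bp from its start (13.1 and 17.8). Which gene lies nearest to that summit is not given here. The gene sygl-1, a stem cell partner of FBF, had 28.7 at 185 bp past its end (17.6 and 9.19). Each of these peaks had a summit of both replicates within 95 bp.

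Among the targets, htp-1 had 71.2 at 31 bp past its end (54.1 in replicate 1 and 19.3 in replicate 2), and htp-2 had the 30.7 already given beside puf-11. These 2 encode HORMA domain proteins of the meiotic chromosome axis and are close copies. The gene gld-1, a germline RNA-binding protein and a classic FBF target, had 39.6 at 68 bp past its end (22.7 and 14.5). The cyclin E gene cye-1 had 34.4 inside its body (21.2 and 15.8), and the Ras gene let-60 had 28.4 in its body, 268 bp from the end (24.5 and 3.96). The targets without a pooled summit were fog-3, hbl-1 and him-3, named after their values were seen, and him-3 nevertheless had 24.4 in replicate 1.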

How the data were processed

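AMA-1 ChIP-seq peak lists on ce11 were used as the authors deposited them. Per the labels and the file lists beside the samples, relaxed lists were made for each replicate and for the pooled reads against a control, and a thresholded list came from these by irreproducible discovery rate. The sources used here do not give the aligner, peak caller, read length or depth. The deposited signal per peak and the deposited −log10 of the q-value were the measurements, and the latter, which was at its highest value of 3.28 for 954 pooled peaks, was not used to rank. The ce10 lists were not used. Genes came from Ensembl release 115 (WBcel235, the assembly of ce11), sequences from NCBI's copy of it. Coordinates are 1-based. Summits were assigned in Python 3.11.15 with numpy 2.4.6 and pandas 2.3.3, proteins aligned with Biopython 1.88 (BLOSUM62), and the assignment was tested on simulated data. Genes with no summit counted as 0. No test was run.

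The members and lists were chosen with earlier results of these data known. Named are the 8 members, the other genes called puf-, and the listed partners and targets with a thresholded summit in the window. The distance of 150 bp from a gene end or start, the repeated 36-mers and the search for AATAAA were added after the values were seen. Alternatives were a stricter threshold, windows of 500 bp and of the body alone, other distances for a match, each replicate alone, and leaving out summits nearer to another gene.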

Additional observations from a re-analysis of the deposited data

How the results depend on the processing

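Members with a thresholded summit numbered 2 (5.20% of all genes), and 1, each time puf-5, with only the peaks above the median of the thresholded list (2.57% of all genes), with 500 bp either side (4.53%) and with the body alone (1.86%). For each replicate alone, its 732 highest-signal relaxed peaks were taken in place of the thresholded list. The count was then 1, puf-11, without replicate 1 (4.87%) and 2, puf-5 and puf-11, without replicate 2 (5.41%). The puf-11 summit of replicate 2 was the 14.2 in its 3' UTR. It was not the thresholded peak beside htp-2, where replicate 2 had 5.34. The puf-11 summit of replicate 1 was the 23.3 beside htp-2. Members with matched summits in both replicates numbered 5 (27.0% of all genes), against 3 within 75 bp (18.5%) and 2 in the body alone (14.0%). The median highest pooled signal, 19.0, was 15.9 with 500 bp either side, 13.4 in the body alone and 13.4 without summits nearer to another gene. In each of these settings fbf-2 moved to 12.8 and puf-11 to 11.3. The gene fbf-1 stayed at 20.2 with 500 bp, and moved to 5.42 in the body alone and without summits nearer to another gene. These moves follow by construction from the summits that each setting leaves out. Summits inside both puf-3 and afmd-2 were kept throughout. The median share of genes with a lower signal, 88.0%, ran from 77.8% to 87.4% with a replicate left out. With 50-mers the repeated share was 49.0% in puf-6, 52.1% in puf-7, 20.2% in fbf-1 and 19.6% in fbf-2. In total 9 recomputed counts and medians stayed within 1.5 times, or within the spread of the replicates. They include the thresholded count and the median share without replicate 2 given above. No paired analysis was possible because both samples belong to 1 group. Unknown depth limits every value, and the lack of a summit in a list does not show that the polymerase was absent.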
